A study of Homo sapiens with 9 samples.

Results

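The 10 genes described here encode the enzymes and partners that copy DNA methylation at replication (UHRF1, DNMT1, HELLS) and UHRF2, the paralog of UHRF1. They also encode the enzymes that set methylation anew (DNMT3A, DNMT3B) and the core of Polycomb repressive complex 2, PRC2 (EZH2, EZH1, SUZ12, EED). They were taken as every probe whose symbol in the platform annotation is one of these names, which gave 20 of the 47323 probes, for 10 of the 20046 genes named by a probe of 1 gene. Signals came from PC3, an established androgen-independent human prostate cancer line, 48 h after transfection with 50 nM siRNA. One group received an ON-Target pool against MELK, a protein kinase abundant in dividing cells, a second an ON-Target pool against UBE2C, the ubiquitin-conjugating enzyme of the anaphase-promoting complex, and the third the AllStars negative control siRNA, with 3 arrays each. All 3 groups share the parent line, the transfection reagent and the dose. The control siRNA has another supplier (Qiagen) than both pools (Thermo Scientific), so a change that both knockdowns show against control cannot be told apart from a difference between siRNA products. Nor do the labels say whether the 3 samples of a group were separate cultures, and the p-values may therefore measure technical spread only.

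DNA methylation at CpG sites is lost by dilution unless it is copied onto each new strand. UHRF1 binds hemimethylated DNA through its SRA domain and recruits DNMT1, which methylates the new strand, while HELLS, a chromatin remodeler of the SNF2 family, opens nucleosomal DNA to the methyltransferases. PRC2 methylates lysine 27 of histone H3 through its catalytic subunit EZH2 or EZH1, and SUZ12 and EED are needed for its activity. UHRF1, DNMT1, HELLS and EZH2 are known as genes of cycling cells, and EZH2 is known to be high in advanced prostate cancer.

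The promoters of the members that held an E2F-type motif are printed from RefSeq (GRCh38.p14), because the letters TTTCGCGC and TTTGGCGC are the kind of site bound by E2F factors, which act on genes of DNA replication. Each runs 5′ to 3′ on the gene's strand from position -250 to 49, counted from the annotated start as 0, with the motif in capitals. All 10 members had an entry.
UHRF1, chr19:4909894-4910193, plus strand: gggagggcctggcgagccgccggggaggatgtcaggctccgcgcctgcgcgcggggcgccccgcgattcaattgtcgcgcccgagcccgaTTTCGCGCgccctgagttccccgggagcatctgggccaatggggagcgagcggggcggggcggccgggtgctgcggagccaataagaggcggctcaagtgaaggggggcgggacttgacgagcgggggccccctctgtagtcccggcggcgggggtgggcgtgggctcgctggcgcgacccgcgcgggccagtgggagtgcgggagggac
DNMT1, chr19:10194904-10195203, minus strand: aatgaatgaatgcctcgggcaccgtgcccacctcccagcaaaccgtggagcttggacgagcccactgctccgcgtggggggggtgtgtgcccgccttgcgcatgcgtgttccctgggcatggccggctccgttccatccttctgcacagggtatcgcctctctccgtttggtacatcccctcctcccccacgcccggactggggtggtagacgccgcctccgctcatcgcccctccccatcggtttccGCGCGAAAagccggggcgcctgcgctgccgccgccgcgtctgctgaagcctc
HELLS, chr10:94545538-94545837, plus strand: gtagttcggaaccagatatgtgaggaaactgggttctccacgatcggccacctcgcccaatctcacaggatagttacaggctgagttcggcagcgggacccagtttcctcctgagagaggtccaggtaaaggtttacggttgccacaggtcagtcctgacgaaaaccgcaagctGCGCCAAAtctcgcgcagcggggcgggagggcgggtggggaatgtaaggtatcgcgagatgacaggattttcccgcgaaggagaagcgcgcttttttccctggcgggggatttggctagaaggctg
EZH2, chr7:148884242-148884541, minus strand: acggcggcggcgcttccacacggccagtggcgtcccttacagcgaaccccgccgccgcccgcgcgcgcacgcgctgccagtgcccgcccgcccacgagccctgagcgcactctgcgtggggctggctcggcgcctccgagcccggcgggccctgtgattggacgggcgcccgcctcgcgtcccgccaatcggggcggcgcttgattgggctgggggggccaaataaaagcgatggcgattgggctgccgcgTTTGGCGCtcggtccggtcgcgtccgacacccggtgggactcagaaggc
TTTCGCGC stood at positions -160 to -153 of this UHRF1 promoter, the second of 3 entries, and, read on the opposite strand, at -2 to 5 of the DNMT1 promoter. TTTGGCGC stood at -76 to -69 of the HELLS promoter on the opposite strand and at 1 to 8 of the second of 2 EZH2 entries. Searched on both strands, TTTCGCGC was in 0.515% and TTTGGCGC in 0.652% of 35116 RefSeq promoters of the same length. None of these matches overlapped a CCAAT box (letters CCAAT, in 34.6% of those promoters), an Sp1-type motif (GGGCGG, in 45%) or a cell-cycle homology region (TTTGAA, in 15.2%), which were searched on both strands as well. The letters were not found in the windows of UHRF2, DNMT3A, DNMT3B, EZH1, SUZ12 and EED. The 4 printed windows held 40 (UHRF1), 30 (DNMT1), 22 (HELLS) and 46 (EZH2) CpG dinucleotides, against a median of 14 over all promoters. Both motifs contain CpG themselves. Members without the motif held 40 (SUZ12), 30 (EZH1), 26 (UHRF2), 16 (EED), 3 (DNMT3B) and, by entry, 18 to 46 (DNMT3A), so a high count was not particular to the printed windows.

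One array, UBE2C siRNA replicate 1, stood apart from the rest. Its correlations over kept probes, 0.848 to 0.877, were below every correlation between 2 other arrays (0.981 to 0.990). The fit reported here therefore leaves it out and uses 8 arrays, and the value from all 9 arrays is given beside each call. That choice was made with earlier results of these data known, counts of calls included. A gene is said to have risen or fallen only where limma's Benjamini-Hochberg adjusted p over 11428 genes was under 0.05 in the 8-array fit. With 2 or 3 arrays in a group the intervals are wide, and 16559 to 18661 probes were above background on an array. The targeted transcripts were checked first. MELK had 9.44, 9.36 and 9.33 on the log2 scale on MELK siRNA arrays, 10.30 and 10.24 on UBE2C siRNA replicates 2 and 3, and 10.52, 10.38 and 10.50 on control arrays. It fell by 1.09 with MELK siRNA (SE 0.089, limma adjusted p = 7.82e-06), and it missed the threshold with 9 arrays (adjusted p = 0.577). UBE2C had 11.53 and 11.66 on UBE2C siRNA replicates 2 and 3, 12.86, 12.83 and 12.85 on MELK siRNA arrays, and 12.97, 12.89 and 12.86 on control arrays. It fell by 1.31 with UBE2C siRNA (SE 0.077, limma adjusted p = 4.15e-08), and by 1.33 with 9 arrays, where replicate 1 had 11.54 (adjusted p = 0.000209). When each kept probe was fitted, a second UBE2C probe, at 1.06 to 1.32 times background, was at -0.13 with UBE2C siRNA (limma adjusted p = 0.878). A second MELK probe was at -1.11 with MELK siRNA (limma adjusted p = 0.000198). The 2 MELK probes went apart on UBE2C siRNA replicate 1, at 10.94 and 8.36. Of the 6 epithelial markers, KRT8, KRT19, KRT7, EPCAM and CDH1 were above background on 9 of 9 arrays and KRT18 on 8 (1.00 to 2.71 times background). Of the 6 luminal prostate markers, KLK3, KLK2 and FOLH1 were above background on 0 arrays and ACP3 on 1, while TMPRSS2 (1.70 to 2.56 times background) and HOXB13 (3.79 to 23.0) were above it on 9. Of 12 markers of other cell types, PTPRC, CD3E, VWF, CDH5, DCN, HBB and HBA1 were above background on 0 arrays. PECAM1 of endothelium (1.23 to 2.03 times background) and ALB of liver (1.62 to 3.45) were above it on 9, the monocyte gene CD14 on 8, and the collagen genes COL1A1 and COL1A2 on 6 and 2.

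UHRF1 and DNMT1, the reader and the enzyme of maintenance methylation, both fell in MELK siRNA cells and in UBE2C siRNA cells when 8 arrays were fitted, to between 71.5% and 76.4% of control. None of the 3 core PRC2 genes that could be tested passed the threshold in either knockdown. Of the 10 genes 8 were tested, since DNMT3A and EZH1 did not pass the detection filter. With MELK siRNA 0 of the 8 rose and 2 fell, where 5.51% of all genes were called, 2.29% higher and 3.22% lower. With UBE2C siRNA 0 rose and 2 fell, where 4.46% were called, 1.68% higher and 2.78% lower. Both shares lie above the background and rest on the same 2 genes. Both comparisons use the same control arrays, so they are not separate evidence. The members, the filter and the 8-array fit were chosen with earlier results of these data known, counts of calls included. The excess over the background is therefore a description and not a test. The median log2 fold change of the 8 was 0.00 with MELK siRNA (all genes 0.004) and -0.14 with UBE2C siRNA (all genes -0.02). With all 9 arrays 0 of the 8 were called in both comparisons, as were 0 of all genes with MELK siRNA (0.00%) and 1 with UBE2C siRNA (0.00875%), while 609 and 1387 genes had an unadjusted p under 0.05 (5.33% and 12.1%, against 22.1% and 22.7% with 8 arrays). Groups of the 8-array fit did not overlap for 3 of the 8 genes with MELK siRNA, all lower, where 13.8% of all genes were all higher and 11.9% all lower. With UBE2C siRNA 3 were all lower and 1 all higher, where 21.6% of all genes were all lower and 17.3% all higher.

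**Figure D1:**
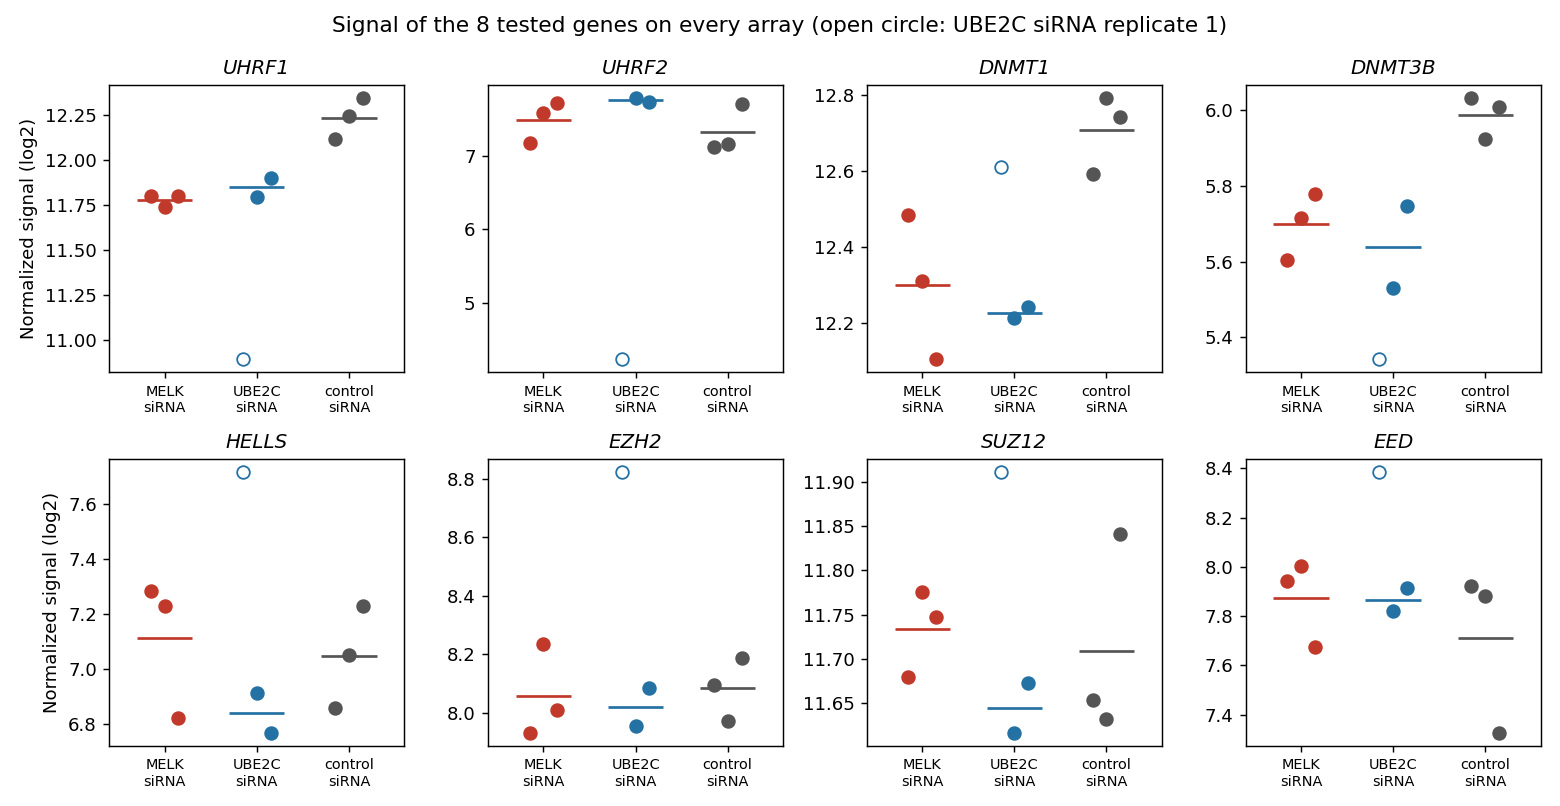
Normalized log2 signal (y axis, a separate range for each gene) of the probe used for each of the 8 tested genes, by group (x axis: MELK siRNA, UBE2C siRNA, control siRNA), 1 point per array; bars are means over the 8 fitted arrays, and the open circle is UBE2C siRNA replicate 1. For UHRF1 the MELK siRNA arrays lie between 11.74 and 11.80, below the control arrays at 12.12 to 12.35, and for EZH2 the groups overlap.

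UHRF1 was bright on every array, at 21.7 to 49.7 times background. Its deposited intensity was 3868, 3719 and 3688 on MELK siRNA arrays, 3413 and 3864 on UBE2C siRNA replicates 2 and 3, and 4254, 5065 and 4474 on control arrays. After normalization the log2 signal was 11.80, 11.74 and 11.80 with MELK siRNA, 11.79 and 11.90 with UBE2C siRNA, and 12.12, 12.25 and 12.35 with control siRNA. Every knockdown array was thus below every control array, before and after normalization. The group means were 11.78 ± 0.033 (SD, n = 3) with MELK siRNA, 11.85 ± 0.077 (n = 2) with UBE2C siRNA and 12.24 ± 0.11 (n = 3) with control siRNA. UHRF1 fell by 0.46 on the log2 scale with MELK siRNA (SE 0.078, 72.8% of control, limma adjusted p = 0.00518). With UBE2C siRNA it fell by 0.39 (SE 0.087, 76.4% of control, limma adjusted p = 0.0227). On the array left out, UBE2C siRNA replicate 1, UHRF1 was lower still, at an intensity of 2198 and a log2 signal of 10.89. With it the difference was -0.71 for UBE2C siRNA (adjusted p = 0.353), while that for MELK siRNA kept its size with a larger SE of 0.22 (adjusted p = 0.938).

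A second UHRF1 probe, annotated to another transcript, was above background on only 5 of 9 arrays. It read 4.18, 4.64 and 5.22 with MELK siRNA, 5.07 and 5.41 with UBE2C siRNA, and 5.30, 4.599 and 5.35 with control siRNA, so the groups overlapped at the edge of detection. In a fit of all 19511 kept probes, which gave each probe its own test, its differences were -0.40 with MELK siRNA (95% CI -1.06 to 0.26, limma adjusted p = 0.531) and 0.16 with UBE2C siRNA (-0.58 to 0.90, adjusted p = 0.856). Averaging both probes gave -0.43 (adjusted p = 0.0985) and -0.12 (adjusted p = 0.719), so the UHRF1 calls rest on the bright probe. In the MELK siRNA comparison the UHRF1 call held when each of the 8 arrays was left out in turn (adjusted p from 0.00572 to 0.0447). The UBE2C siRNA call was lost without UBE2C siRNA replicate 2 (-0.33, adjusted p = 0.258), without replicate 3 (-0.44, adjusted p = 0.123) and without control replicate 2 (-0.38, adjusted p = 0.0577).

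DNMT1, the maintenance methyltransferase itself, lay at 44.4 to 71.8 times background. Its deposited intensity was 6162, 5485 and 4505 on MELK siRNA arrays, 4533 and 4917 on UBE2C siRNA replicates 2 and 3, and 5892, 7289 and 5869 on control arrays. Before normalization MELK siRNA replicate 1 was thus above 2 of the 3 control arrays. The normalized log2 signal was 12.48, 12.31 and 12.10 with MELK siRNA, 12.21 and 12.24 with UBE2C siRNA, and 12.59, 12.79 and 12.74 with control siRNA. After normalization the knockdown arrays of the fit were all below the control arrays, with the narrowest gap at MELK siRNA replicate 1. Means were 12.30 ± 0.19 (SD, n = 3) with MELK siRNA, 12.23 ± 0.021 (n = 2) with UBE2C siRNA and 12.71 ± 0.10 (n = 3) with control siRNA. The MELK siRNA difference was -0.41 (SE 0.089, 75.3% of control, limma adjusted p = 0.0143), and the UBE2C siRNA difference was -0.48 (SE 0.099, 71.5% of control, limma adjusted p = 0.0168).

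Unlike UHRF1, DNMT1 was not low on UBE2C siRNA replicate 1, which had an intensity of 7280 and a log2 signal of 12.61, within the control range. With all 9 arrays the DNMT1 difference was -0.35 with UBE2C siRNA (95% CI -0.66 to -0.052, limma adjusted p = 0.379), with overlapping groups, and -0.41 with MELK siRNA (adjusted p = 0.846). The MELK siRNA call was lost without MELK siRNA replicate 2 (-0.41, limma adjusted p = 0.0752), without replicate 3 (-0.31, adjusted p = 0.0717) and without control replicate 2 (-0.37, adjusted p = 0.0504). The UBE2C siRNA call was lost without UBE2C siRNA replicate 2 (-0.47, adjusted p = 0.207), without replicate 3 (-0.50, adjusted p = 0.131) and without control replicate 2 (-0.44, adjusted p = 0.051).

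Scaling bears on the size of both falls. When arrays were scaled to a common median instead of quantile-normalized, the median difference of genes within 0.5 log2 of the UHRF1 signal was 0.18 with MELK siRNA and 0.074 with UBE2C siRNA, against 0.015 and -0.018 after quantile normalization. UHRF1 was then at -0.285 with MELK siRNA (limma adjusted p = 0.158) and -0.30 with UBE2C siRNA (adjusted p = 0.253). DNMT1 was at -0.24 (adjusted p = 0.292) and -0.38 (adjusted p = 0.208), while genes of its own signal range had medians of 0.18 and 0.099. Both genes stayed below control under median scaling, cyclic loess and the authors' processed values, and no member was called under median scaling. There 157 genes were called with MELK siRNA, 133 higher and 24 lower, against 262 higher and 368 lower after quantile normalization, and 9 with UBE2C siRNA, 7 higher and 2 lower, against 192 and 318. The prior on the variance mattered as well: without an intensity trend the same 8 arrays gave adjusted p-values of 0.0901 (UHRF1) and 0.135 (DNMT1) with MELK siRNA, and of 0.131 for both with UBE2C siRNA.

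**Figure D2:**
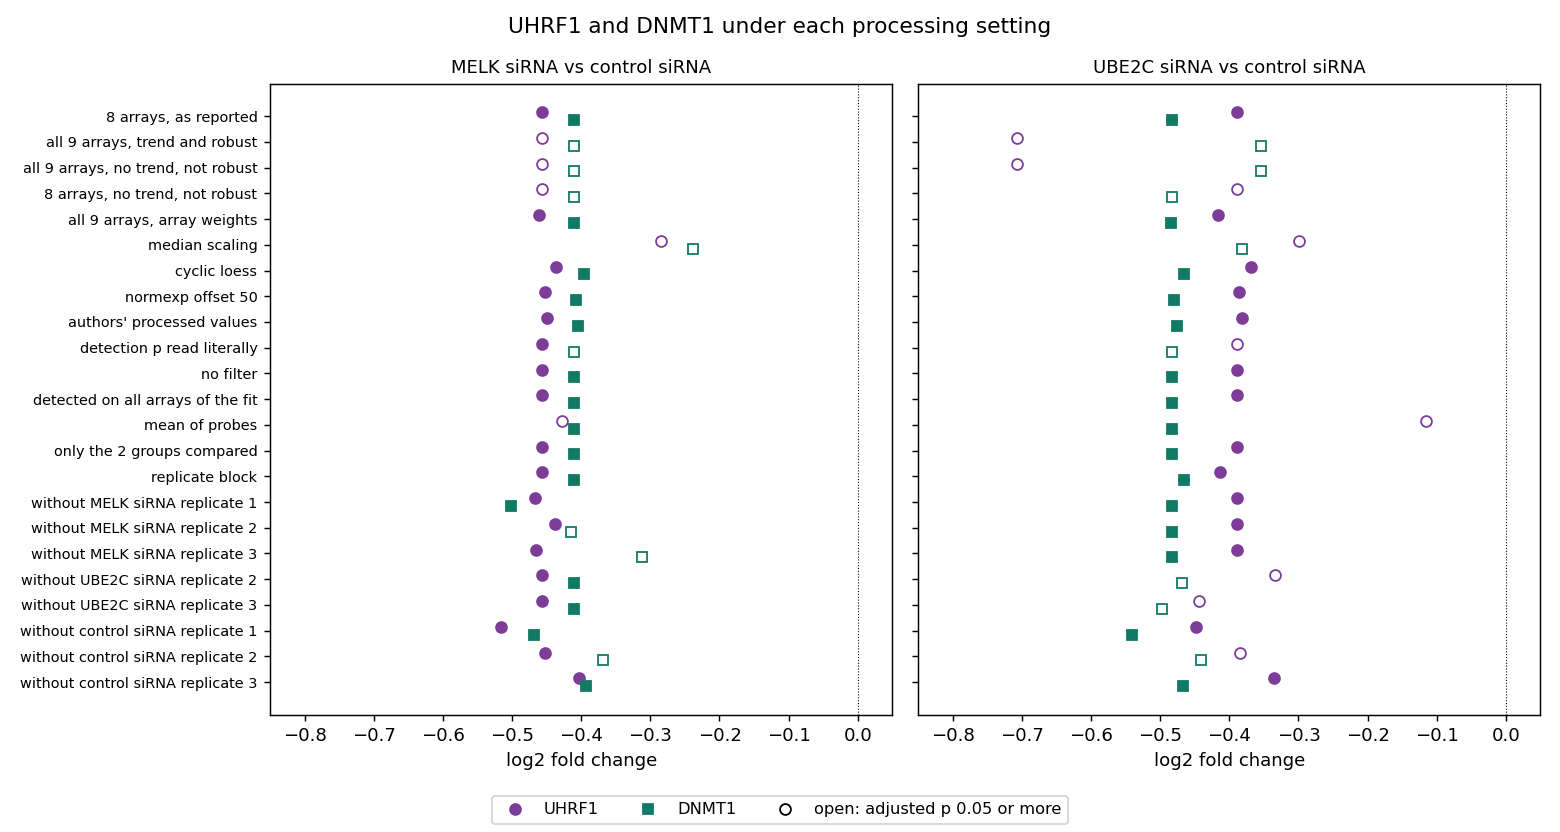
Log2 fold change (x axis) of UHRF1 (circles) and DNMT1 (squares) against control under each processing setting (rows), with MELK siRNA on the left and UBE2C siRNA on the right; filled symbols have an adjusted p under 0.05. All points lie below 0, from -0.71 to -0.12 for UHRF1 with UBE2C siRNA, and open symbols mark the settings without a call.

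HELLS, the remodeler, and UHRF2, the paralog of UHRF1, were not called in either knockdown. HELLS had 7.29, 7.23 and 6.82 with MELK siRNA, 6.91 and 6.77 with UBE2C siRNA, and 6.86, 7.05 and 7.23 with control siRNA. The groups overlapped, and the differences were 0.07 with MELK siRNA (95% CI -0.28 to 0.41, limma adjusted p = 0.86) and -0.21 with UBE2C siRNA (-0.60 to 0.18, adjusted p = 0.551). On this probe the 8-array interval with MELK siRNA excludes a fall of the size seen for UHRF1, that with UBE2C siRNA does not. With 9 arrays the MELK siRNA interval (-0.56 to 0.69) includes such a fall. In the fit of all kept probes, a second HELLS probe gave -0.14 with MELK siRNA (95% CI -0.635 to 0.36). With UBE2C siRNA it gave -0.08 (-0.63 to 0.48), and both intervals include a fall of that size. UHRF2 had 7.17, 7.57 and 7.71 with MELK siRNA, 7.78 and 7.72 with UBE2C siRNA, and 7.12, 7.15 and 7.70 with control siRNA. Its UBE2C siRNA arrays were above all control arrays by a small margin, as were those of 17.3% of all genes, with a difference of 0.425 (95% CI 0.016 to 0.83, unadjusted p = 0.0424, limma adjusted p = 0.201). The MELK siRNA difference of UHRF2 was 0.16 (95% CI -0.205 to 0.53, limma adjusted p = 0.634). On UBE2C siRNA replicate 1 the UHRF2 probe was not above background, which turned the 9-array difference to -0.74 (95% CI -2.72 to 1.23, limma adjusted p = 0.701). HELLS likewise changed sign with that array, to 0.087 (95% CI -0.54 to 0.71, adjusted p = 0.896).

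Of the enzymes that set methylation anew, DNMT3A was not well above background on any of the 9 arrays with any of its 3 probes, which read 0.849 to 1.13 times background. Its differences without a detection filter were 0.38 (limma adjusted p = 0.362) with MELK siRNA and 0.19 (adjusted p = 0.739) with UBE2C siRNA. DNMT3B, the other de novo methyltransferase, had 5 probes, of which 2 were kept, and the one tested read 1.19 to 1.54 times background. Its log2 signal was 5.605, 5.71 and 5.78 with MELK siRNA, 5.53 and 5.75 with UBE2C siRNA, and 6.03, 5.92 and 6.01 with control siRNA. All knockdown arrays were below all control arrays, as were those of 11.9% of all genes with MELK siRNA and 21.6% with UBE2C siRNA. The differences of -0.29 (95% CI -0.71 to 0.13, limma adjusted p = 0.425) and -0.35 (-0.82 to 0.12, adjusted p = 0.379) did not pass the threshold, and the intervals include both no change and a fall as large as that of UHRF1. With 9 arrays the UBE2C siRNA difference of DNMT3B was -0.45 (adjusted p = 0.441). The second kept DNMT3B probe gave -0.02 with MELK siRNA and -0.06 with UBE2C siRNA, with 95% CIs of -0.61 to 0.57 and -0.72 to 0.60.

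EZH2, the catalytic subunit of PRC2, had overlapping groups on the probe tested. It had 7.93, 8.23 and 8.01 with MELK siRNA, 7.95 and 8.09 with UBE2C siRNA, and 8.10, 7.97 and 8.19 with control siRNA. The differences were -0.03 with MELK siRNA (95% CI -0.29 to 0.24, limma adjusted p = 0.929) and -0.07 with UBE2C siRNA (-0.36 to 0.23, adjusted p = 0.825), that is 98.2% and 95.6% of control. Falls as large as those of UHRF1 lie outside both intervals of this probe in the 8-array fit. With 9 arrays the MELK siRNA interval of this probe (-0.55 to 0.50) includes such a fall. In the fit of all kept probes the 2 other EZH2 probes gave -0.335 (95% CI -0.70 to 0.030) and 0.06 (-0.39 to 0.52) with MELK siRNA, and 0.31 (-0.10 to 0.72) and 0.08 (-0.42 to 0.59) with UBE2C siRNA, none called. The first probe's MELK siRNA interval and the second probe's UBE2C siRNA interval include a fall as large as that of UHRF1. Their other intervals do not. On the first of these probes, MELK siRNA arrays read 6.37, 6.43 and 6.70 and UBE2C siRNA replicates 2 and 3 read 7.22 and 7.07, without overlap. Its difference of MELK siRNA minus UBE2C siRNA was -0.64 (95% CI -1.05 to -0.23, unadjusted p = 0.00413, limma adjusted p = 0.936), against 0.04 and -0.02 on the other EZH2 probes, so the 3 probes of this gene did not give one answer.

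SUZ12, the scaffold subunit, read 11.68, 11.78 and 11.75 with MELK siRNA, 11.62 and 11.67 with UBE2C siRNA, and 11.65, 11.63 and 11.84 with control siRNA. Its differences were 0.03 (95% CI -0.14 to 0.19, limma adjusted p = 0.886) and -0.065 (-0.25 to 0.12, adjusted p = 0.718), the narrowest intervals among the PRC2 genes, and the groups overlapped. EED, which binds methylated lysine 27 and stimulates the enzyme, read 7.94, 8.004 and 7.675 with MELK siRNA, 7.82 and 7.91 with UBE2C siRNA, and 7.92, 7.88 and 7.33 with control siRNA. Its differences were 0.16 (95% CI -0.17 to 0.50, adjusted p = 0.589) and 0.16 (-0.22 to 0.53, adjusted p = 0.649), and control replicate 3 was the lowest array. With 9 arrays the UBE2C siRNA differences were 0.20 for EZH2 (adjusted p = 0.699), 0.025 for SUZ12 (adjusted p = 0.927) and 0.33 for EED (adjusted p = 0.55), the first 2 with the opposite sign. Median scaling also turned the sign of EZH2 with MELK siRNA (0.050) and of SUZ12 with UBE2C siRNA (0.027). EZH1, the paralog of EZH2 found in resting cells, had 1 probe, above background on 2 of 9 arrays (MELK siRNA replicate 2 and control replicate 3). Without the detection filter its differences were -0.35 (limma adjusted p = 0.713) with MELK siRNA and -0.43 (adjusted p = 0.691) with UBE2C siRNA, where control replicate 3 alone, at 6.05, lay above 4.315 and 4.56 on the other control arrays.

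**Figure D3:**
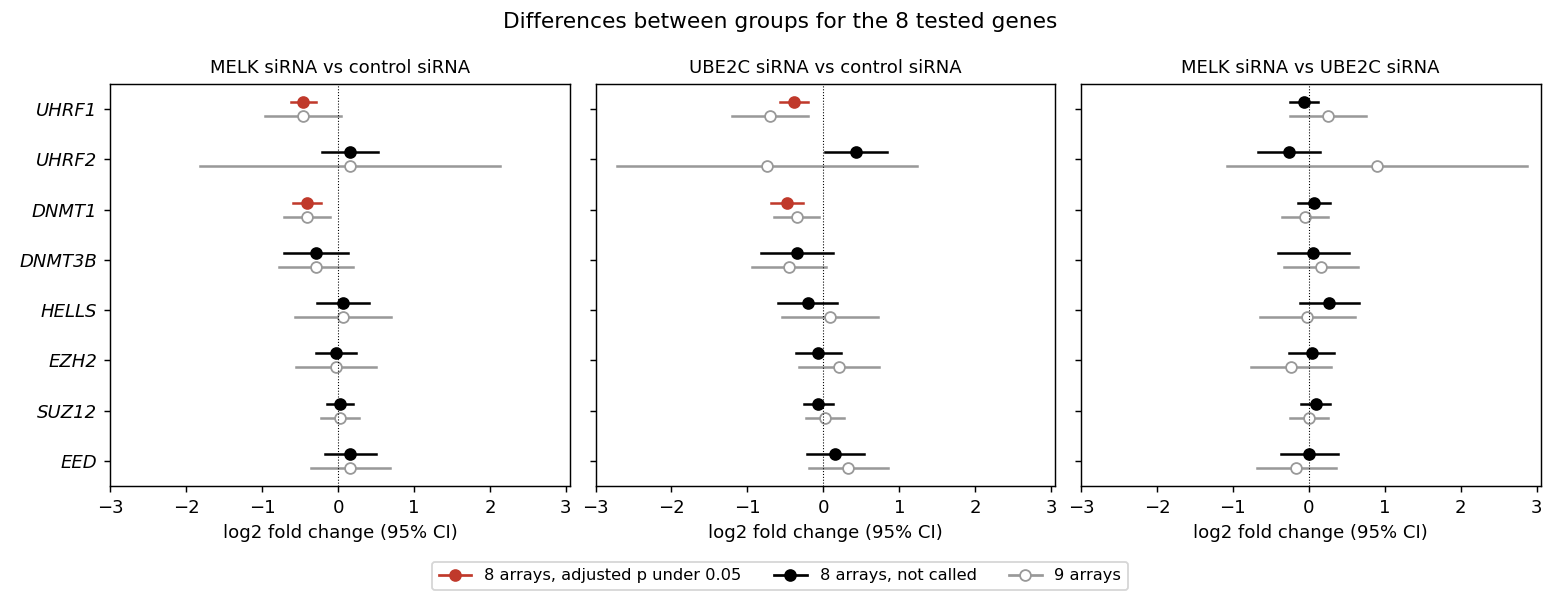
Log2 fold change with its 95% CI (x axis) of the 8 tested genes (rows) in the 3 comparisons (panels), from 8 arrays (filled, red where the adjusted p was under 0.05) and from 9 arrays (open, grey). UHRF1 and DNMT1 are red in both comparisons with control and in neither fit of MELK siRNA against UBE2C siRNA, and the UHRF2 interval spans -2.72 to 1.23 once UBE2C siRNA replicate 1 is included.

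The knockdowns were then set against each other, a difference that does not use the mean of the control arrays. Those arrays still entered the normalization and the shared estimate of the spread. None of the 8 genes was called (0 rose, 0 fell; 0.0175% of all genes were called, 5.08% at an unadjusted p under 0.05), and 0 had an unadjusted p under 0.05. UHRF1 differed by -0.07 between MELK siRNA and UBE2C siRNA (95% CI -0.25 to 0.12, limma adjusted p = 0.954) and DNMT1 by 0.07 (-0.14 to 0.28, adjusted p = 0.956), with overlapping groups. A difference of up to 0.25 in size for UHRF1 and 0.28 for DNMT1 lies inside these intervals. HELLS had the largest difference of the 8 in size, 0.27 (-0.12 to 0.66, adjusted p = 0.937), and its groups overlapped, followed by UHRF2 at -0.265 (-0.67 to 0.14, adjusted p = 0.937). UHRF2 was lower on every MELK siRNA array than on both UBE2C siRNA arrays, as were 9.22% of all genes, and SUZ12 was higher on every one, as were 14.2%. With 9 arrays 0 of the 8 were called (0.00875% of all genes, 2.49% at an unadjusted p under 0.05), and the UHRF1 difference was 0.25 (95% CI -0.25 to 0.75, adjusted p = 0.795).

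**Figure D4:**
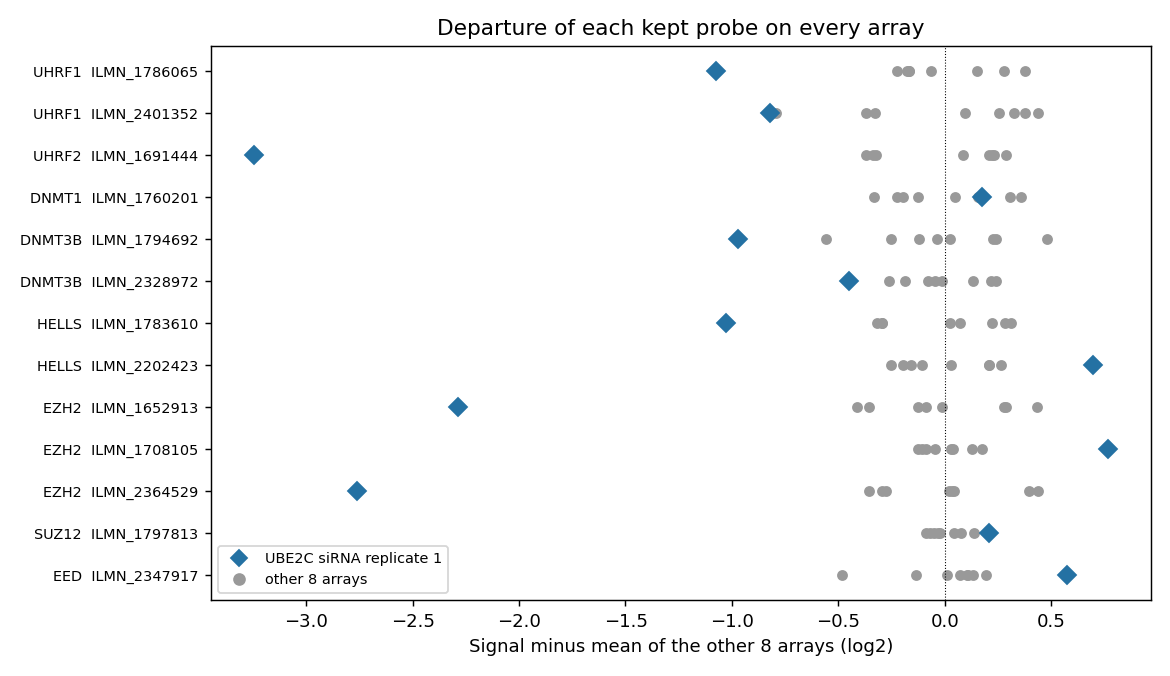
Log2 signal minus the mean of the other 8 arrays (x axis) for each of the 13 kept probes (rows, with probe name); diamonds are UBE2C siRNA replicate 1 and grey points the other 8 arrays. The diamond lies outside the grey points for every probe except that of DNMT1, and it lies on opposite sides for the probes of HELLS and of EZH2.

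On UBE2C siRNA replicate 1, 7 of the 8 tested probes lay outside the range of the other 8 arrays, as did 76.7% of all genes. HELLS (7.72), EZH2 (8.825), SUZ12 (11.91) and EED (8.39) lay above it, and UHRF1 (10.89), UHRF2 (4.245) and DNMT3B (5.34) below it. Probes of 1 gene went apart on this array. The EZH2 probe above the range stood beside 2 EZH2 probes at 4.90 and 4.50, which read 7.30 to 8.10 and 6.37 to 7.22 on the other arrays. The difference between an EZH2 probe and the one tested was -3.92 on this array and -0.71 to 0.046 elsewhere, and for the third probe it was -4.32 against -1.80 to -0.73. For the HELLS pair it was -2.73 against -1.51 to -0.615.

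Genes that work beside the members were counted from lists. In the 8-array fit 5.51% of all genes were called with MELK siRNA, 2.29% higher and 3.22% lower. With UBE2C siRNA 4.46% were called, 1.68% higher and 2.78% lower. The counts of each list stand beside these shares, and no list was tested against them. Of 14 tested partners and readers of DNA methylation, 0 rose and 1 fell with MELK siRNA, and 0 rose and 0 fell with UBE2C siRNA (medians -0.08 and 0.02, all genes 0.004 and -0.02). The gene that fell was PCLAF, a small factor bound to PCNA at replication forks, at -0.25 (SE 0.064, limma adjusted p = 0.0327, and 0.853 with 9 arrays). Its call was kept in 2 of 8 fits with 1 array left out, those without MELK siRNA replicate 1 or control replicate 2, and the adjusted p reached 0.127 without MELK siRNA replicate 3. It was at -0.18 with UBE2C siRNA (adjusted p = 0.146). PCNA, the replication clamp that carries DNMT1 to the fork, was at 0.246 with MELK siRNA (adjusted p = 0.0705) and 0.18 with UBE2C siRNA (adjusted p = 0.219). None of the 29 tested genes of S phase and proliferation rose or fell in either knockdown, with medians of -0.075 and -0.10. Under median scaling the MELK siRNA median was 0.093. Single genes of the list ran from -0.44 to 0.50 with MELK siRNA and from -0.48 to 0.63 with UBE2C siRNA. With MELK siRNA 5 were all lower and 5 all higher than control, where 11.9% and 13.8% of all genes were. With UBE2C siRNA 10 were all lower and 4 all higher, where 21.6% and 17.3% of all genes were. Over 14 alternative settings up to 3 were called with UBE2C siRNA and 0 with MELK siRNA. TYMS, which makes thymidylate, was at -0.08 and -0.13, and MCM7, a subunit of the replicative helicase, at -0.02 and -0.03.

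The other 9 tested subunits of PRC2 showed 0 calls in both knockdowns (medians 0.04 and -0.01). RBBP7, a histone chaperone of the complex, was at 0.18 (limma adjusted p = 0.217) and 0.07 (adjusted p = 0.704), and PHF19, an accessory subunit, at -0.01 and 0.04. Of 24 tested genes of PRC1, the complex that ubiquitinates histone H2A, 1 rose and 0 fell with MELK siRNA, where 2.29% of all genes rose. With UBE2C siRNA 0 rose and 0 fell, where 4.46% of all genes were called. The medians of the list were -0.04 with MELK siRNA and -0.055 with UBE2C siRNA. The one that rose was SCML1, a Polycomb-group relative, at 0.47 (SE 0.12, adjusted p = 0.0315; 9 arrays 0.85), with 0.36 and an adjusted p of 0.125 in UBE2C siRNA cells. Its call was kept only without MELK siRNA replicate 1, and the adjusted p reached 0.146 without MELK siRNA replicate 2. BMI1 was at -0.11 and 0.10, and RING1 at -0.02 and -0.09.

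The next list holds genes of complexes that counter Polycomb or act against its marks. Of 10 tested, 0 rose and 3 fell with MELK siRNA, where 3.22% of all genes fell. With UBE2C siRNA 0 rose and 2 fell, where 2.78% fell. In each, 9 of 10 differences were negative, with medians of -0.41 and -0.26 (all genes 0.004 and -0.02). Under median scaling the medians were -0.29 and -0.25. Over 14 alternative settings they ran from -0.41 to -0.135 with MELK siRNA and from -0.37 to -0.195 with UBE2C siRNA. SMARCA4, the ATPase of the SWI/SNF remodeling complex, fell by 0.44 with MELK siRNA (SE 0.081, limma adjusted p = 0.00803; 9 arrays 0.752) and by 0.55 with UBE2C siRNA (SE 0.091, adjusted p = 0.0112; 9 arrays 0.314). ASXL2, a partner of the H2A deubiquitinase BAP1, fell by 0.50 (SE 0.12, adjusted p = 0.0208; 9 arrays 0.846) and by 0.51 (SE 0.13, adjusted p = 0.0368; 9 arrays 0.41). ARID1A, a DNA-binding subunit of SWI/SNF, fell by 0.45 with MELK siRNA (SE 0.093, adjusted p = 0.0119; 9 arrays 0.81) and was at -0.20 with UBE2C siRNA (adjusted p = 0.275). SMARCB1 and SMARCA2, also of SWI/SNF, were at -0.11 and -0.01 with MELK siRNA and at -0.14 and -0.09 with UBE2C siRNA. With 1 array left out in turn, SMARCA4 with MELK siRNA was called in 8 of 8 fits, ARID1A in 7 (not without MELK siRNA replicate 2, adjusted p = 0.0805) and ASXL2 in 6 (not without MELK siRNA replicates 2 or 3, adjusted p = 0.109 and 0.093). With UBE2C siRNA, SMARCA4 was called in 6 (not without UBE2C siRNA replicates 2 or 3, adjusted p = 0.194 and 0.102) and ASXL2 in 3, not without UBE2C siRNA replicates 2 (adjusted p = 0.311) or 3 (0.144), MELK siRNA replicate 2 (0.0594), or control replicates 1 (0.0676) or 2 (0.0769). Under median scaling none of these genes was called.

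Among genes known to be silenced by DNA methylation or PRC2, many HOX genes and cancer-testis genes were above background on no array. Of all 20046 genes named by a probe only 11428 passed the detection filter. The share above background on no array was not counted over all genes. Whether the missing signal reflects silencing was not tested. Of 29 HOX genes with a probe, 16 were above background on no array and 10 were tested. Of these 0 rose and 1 fell with MELK siRNA, where 3.22% of all genes fell. None was called with UBE2C siRNA, where 4.46% of all genes were. HOXB5 was at -0.60 with MELK siRNA (SE 0.155, limma adjusted p = 0.0345; 9 arrays 0.938) and was at -0.44 with UBE2C siRNA, and this call was lost without any 1 of the 8 arrays (adjusted p from 0.0541 to 0.119). HOXB13, a prostate lineage factor, was at -0.25 and -0.37, and HOXC6 at -0.025 and -0.08. Of 29 cancer-testis and germline genes with a probe, 17 were above background on no array. Of all genes 3.22% fell with MELK siRNA and 2.78% with UBE2C siRNA. Only 4 genes of this list were tested. Of these TDRD1, a Tudor protein of the germline, fell with MELK siRNA, by 0.96 (SE 0.25, adjusted p = 0.0332; 9 arrays 0.915), kept without MELK siRNA replicate 1 or control replicate 1 but not in the other 6 fits with 1 array left out (adjusted p up to 0.118), and was at -0.37 with UBE2C siRNA. XAGE1B and MAGEC2 were at -0.48 and -0.58 with MELK siRNA and at -0.19 and 0.03 with UBE2C siRNA, none called.

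Of 15 genes proposed as EZH2-repressed that had a probe, 10 were above background on every array and 4 on none. Among the 11 tested, 0 rose in either knockdown, where 2.29% (MELK siRNA) and 1.68% (UBE2C siRNA) of all genes rose. In each knockdown 1 of the 11 fell, where 3.22% and 2.78% of all genes fell. SLIT2, a secreted guidance ligand, fell with MELK siRNA by 0.53 (SE 0.11, limma adjusted p = 0.0122; 9 arrays 0.938) and with UBE2C siRNA by 0.50 (SE 0.12, adjusted p = 0.0323). With 9 arrays the UBE2C siRNA difference of SLIT2 was -0.15 (adjusted p = 0.798). With MELK siRNA the call was lost without MELK siRNA replicates 2 (adjusted p = 0.0689) or 3 (0.0628), and with UBE2C siRNA without UBE2C siRNA replicates 2 (0.278) or 3 (0.153), MELK siRNA replicate 2 (0.0557) or control replicate 2 (0.0896). PEBP1, a kinase inhibitor, was at -0.095 and -0.10, and CCN3, a matricellular protein, at 0.14 and 0.21.

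**Figure D5:**
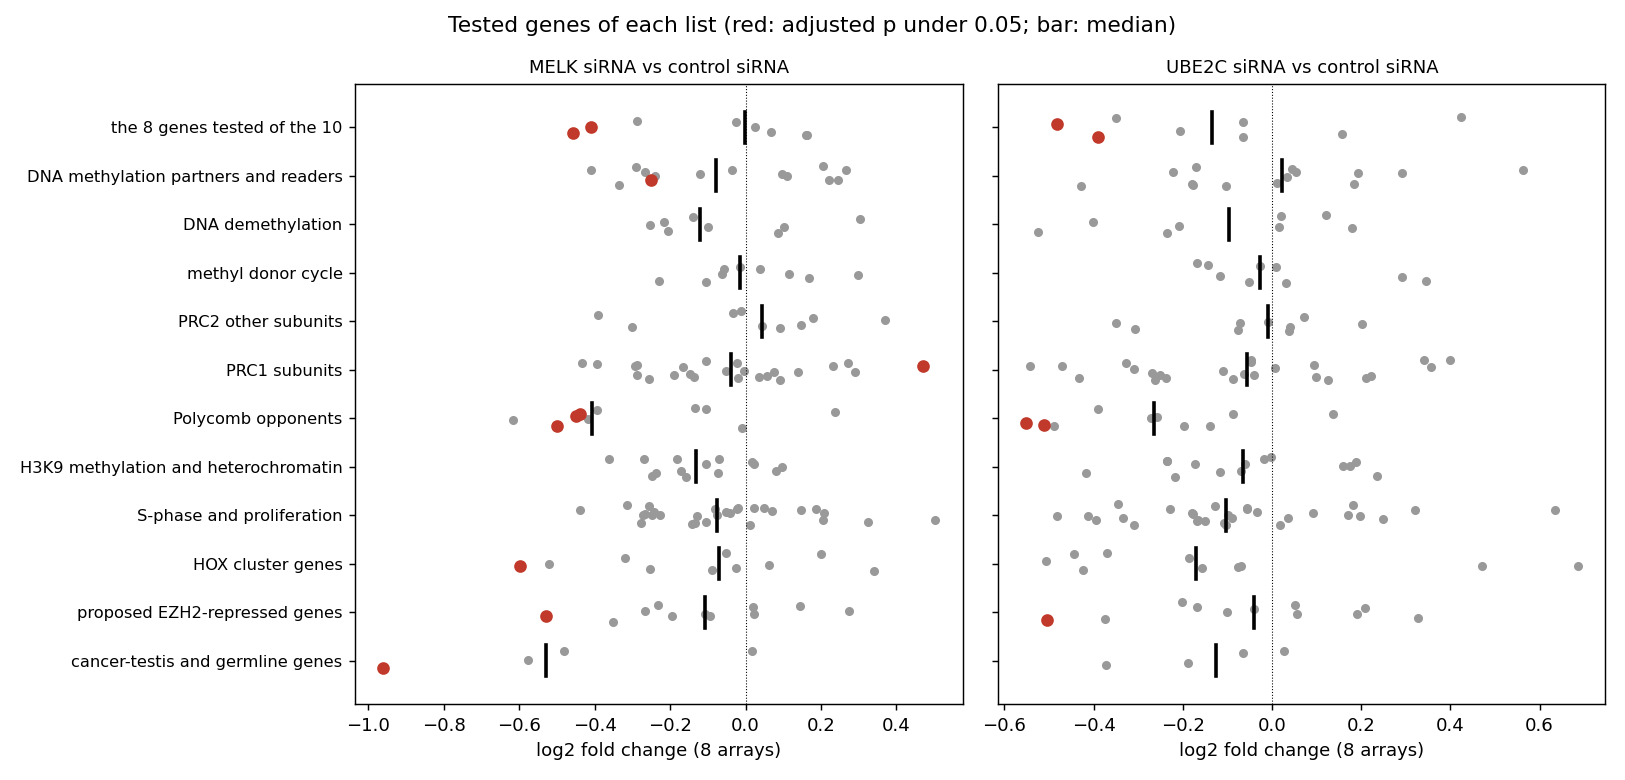
Log2 fold change from 8 arrays (x axis) of every tested gene of the members and of each list (rows), with MELK siRNA on the left and UBE2C siRNA on the right; red points have an adjusted p under 0.05 and bars are medians. The list of genes that counter Polycomb has medians of -0.41 and -0.26. The S-phase list, with medians near 0, has no red point, while its genes run from -0.44 to 0.50 and from -0.48 to 0.63.

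Across the 8 arrays the genes most like UHRF1 in their log2 signal, by Pearson correlation, were NR2F1 (0.986), FBXL18 (0.983) and DBNDD1 (0.983), and those most like DNMT1 were GOLGA3 (0.993), TNIP1 (0.993) and LRP5 (0.992). UHRF1 and DNMT1 correlated at 0.870, UHRF1 and DNMT3B at 0.847, and EZH2 and SUZ12 at 0.723. These are descriptions over 8 arrays that share normalization and group structure.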

How the data were processed

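Bead arrays of 9 PC3 samples (3 per siRNA group, from the titles) were used. The authors deposited an intensity for every probe, which is linear and still holds its background (97.7 to 102, from the values), and a detection p-value, per the file headers. The authors' processed values are log2, quantile-normalized without background subtraction (array medians 6.78), as a comparison with the intensities showed; the submitters' processing notes name lumi with no version. A series-wide symbol check against RefSeq matched 30074 probes and changed 0 names; 30113 of 47323 probes had 1 gene, 8 several and 17202 none listed.

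Intensities were normalized with neqc of limma 3.58.1 (R 4.3.3; offset 16). The detection p was small on both sides of background (2428 to 3108 probes per array below it at p under 0.01), so a probe counted as detected at p under 0.01 with signal above background, and was kept if detected on 3 arrays (19511 probes). The brightest kept probe stood for a gene (11428 genes). Group means of 8 arrays were fitted with lmFit and eBayes (trend, robust), with Benjamini-Hochberg adjustment over all genes. The members, the lists, this filter and the 8-array trended fit were chosen with earlier results of these data known, counts of calls included. Named genes are the members, MELK, UBE2C and, per list, called genes plus up to 2 of the brightest others. Alternatives covered arrays, prior, array weights, scaling, offset, filter, probe choice, groups fitted, the replicate block and each array left out. The fit was tested on simulated data over 11428 genes for MELK siRNA against control: the share of simulated log2 changes called was 24.6% at size 0.5, 70.4% at size 1 and 94.1% at size 2, with 3 false calls. Arrays of a group shared at most 14 identical signals, so all counted as separate. No slide or scan date was used, and batches were not tested.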

Additional observations from a re-analysis of the deposited data

Results flagged for a closer look

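On UBE2C siRNA replicate 1, the array that the 8-array fit leaves out, 4 tested probes were above every control array: HELLS at a log2 signal of 7.718 (controls 6.86 to 7.23), EZH2 at 8.825 (7.97 to 8.19), SUZ12 at 11.912 (11.63 to 11.84) and EED at 8.386 (7.33 to 7.92). They were singled out as signal on an array that the 8-array comparisons do not use; the 9-array values include it. The other probes of HELLS (4.985) and EZH2 (4.50 and 4.90) were below the other 8 arrays here, and 5776 of 11428 genes lay above all other arrays. The groups of 3 arrays are too small for a test of single outliers.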

How the results depend on the processing

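The 2 calls in each comparison with control stayed at 2 with array weights (UBE2C siRNA replicate 1 at a weight of 0.0466), cyclic loess, an offset of 50, the authors' processed values, no filter, a filter on all 8 arrays, only the 2 groups compared, and each kept probe on its own. In both comparisons 0 members were called with 9 arrays (trended or plain prior), with 8 arrays and a plain prior, and under median scaling. With the detection p read literally 1 member was called for MELK siRNA and 0 for UBE2C siRNA, and with the mean of probes 1 in each. Leaving out 1 array gave 1 to 2 calls for MELK siRNA and 0 to 2 for UBE2C siRNA; where this left 1 UBE2C siRNA array, its spread was taken to equal that of the other groups. MELK siRNA against UBE2C siRNA gave 0 calls throughout. The fall of MELK kept its size of -1.085 but not its call with 9 arrays (limma adjusted p = 0.577 trended, 0.884 plain). With the replicate block the falls were -0.457 (adjusted p = 0.00313, MELK siRNA) and -0.414 (adjusted p = 0.0259, UBE2C siRNA) for UHRF1 and -0.41 (adjusted p = 0.0125) and -0.47 (adjusted p = 0.0284) for DNMT1, with 2 calls each; same-numbered deviations correlated at 0.046 to 0.245 (MELK siRNA and UBE2C siRNA, different numbers -0.232 to 0.198), -0.065 to 0.179 (MELK siRNA and control) and -0.125 to 0.160 (UBE2C siRNA and control). Not every pair exceeded 0.1, and the labels name nothing shared by a number, so the samples were not treated as paired. No called value of a member or list gene reversed. The causes of these changes were not tested. Genes near background (DNMT3B, DNMT3A, EZH1, the second UHRF1 probe) have differences that the array compresses, and changes of 0.5 were recovered in 24.6% of simulated cases for MELK siRNA, so members that were not called cannot be read as unchanged.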

Other observations

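Genes that remove DNA methylation, supply the methyl donor or methylate lysine 9 of histone H3 gave 0 calls in either knockdown. Of all genes 5.51% were called with MELK siRNA and 4.46% with UBE2C siRNA. Of 8 tested demethylation genes the medians were -0.12 with MELK siRNA and -0.10 with UBE2C siRNA (-0.03 and -0.06 under median scaling); APEX1, a base-excision repair nuclease, was at 0.10 and 0.02, and IDH1, which makes the cofactor of the TET enzymes, at 0.09 and 0.12. Of 9 tested genes of the methyl donor cycle the medians were -0.02 and -0.03 (0.16 and 0.03 under median scaling); AHCY, which clears the methylation by-product, was at -0.02 and 0.03, and SHMT2, a mitochondrial one-carbon enzyme, at -0.06 and -0.12. Of 14 tested genes of lysine 9 methylation and heterochromatin the medians were -0.13 and -0.07; TRIM28, a corepressor, was at 0.02 and -0.235, and CBX3, a reader of the mark, at -0.16 and -0.002. With UBE2C siRNA replicate 1 included, AHCY was at -1.62 with UBE2C siRNA (limma adjusted p = 0.575).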
